A study of Mus musculus with 8 samples.

Results

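A set of 10 genes that regulate early blood and thymic progenitors was followed in a map of Bcl11b binding: Kit, Spi1, Lmo2, Lyl1, Hhex, Mef2c, Mycn, Erg, Meis1 and Bcl11a. The assay was ChIP-seq (chromatin immunoprecipitation, then sequencing), in which DNA fragments bound by a protein are recovered with an antibody and counted along the genome. The cells were freshly isolated mouse thymocytes of 2 genotypes. Bcl11b+/N440K thymocytes carry 1 Bcl11b allele with an amino acid exchange beside 1 wild type allele (3 ChIP libraries), and Bcl11b+/+ thymocytes are wild type (3 ChIP libraries); no other allele or treatment is given in the labels, nor the age of the mice. The rabbit antibody was raised against Bcl11b, and a heterozygous sample does not separate the mutant from the wild type protein. No source used here ties a library to its own animal, so each p-value reflects the spread among 3 libraries a genotype, which may be technical.

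A binding interval was taken as a member when its nearest protein-coding gene body in RefSeq was 1 of the 10 genes and lay within 100 kb of its midpoint. The rule used position only. It found 60 of the 63098 intervals in the authors' normalized table, at 9 of the 10 genes. A further 38 intervals near these genes, 98 in all, were in the raw count table only, which holds 93708. Library totals over the 63098 intervals ranged from 1656164 to 1925619 reads in N440K and from 1609762 to 2400250 in wild type thymocytes. Bcl11b ChIP measures binding and not expression, so the labelled cell type was looked at only through where binding lay: all 7 T lineage marker genes checked had tested intervals, 70 in total, against 2 intervals at 2 of 3 B cell, 13 at 1 of 3 myeloid (all at Itgam) and 5 at 2 of 3 erythroid marker genes. Of these marker genes Itgam alone was called by summed counts, lower in N440K thymocytes (165.4 ± 3.89 CPM in N440K and 215.1 ± 41.2 CPM in wild type, SD, n = 3; log2 fold change -0.38 ± 0.10, SE; edgeR adjusted p = 0.0317), and the part of such cells in the results was not tested. The wild type input libraries were not used here, so levels are given without background.

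Thymocytes descend from blood progenitors that reach the thymus with stem and progenitor genes still active, and these genes are shut down as the cells commit to the T lineage. Bcl11b, a zinc finger transcription factor, is switched on at commitment and is needed for it. Kit is the receptor for stem cell factor, which keeps progenitors growing. Lmo2 is an adaptor that bridges DNA-binding proteins, Lyl1 is a basic helix-loop-helix factor that works with it, and Spi1 (PU.1) and Erg are Ets family factors. Hhex and Meis1 are homeodomain factors, Mef2c is a MADS box factor, Mycn belongs to the Myc family, and Bcl11a is the paralog of Bcl11b.

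RefSeq promoter windows on GRCm38.p6 (the mm10 coordinates) were at hand for 8 of the 10 genes, without Spi1 and Lmo2. Each window covers 250 bases before to 50 bases after an annotated start. A tested interval reached into the window at Kit, Lyl1 and Hhex only. These sequences show where tested intervals lie beside a start site. Capitals mark the bases that a tested interval covers, which need not each be bound by Bcl11b. The Kit window is chr5:75574737-75575036, the Lyl1 window chr8:84701207-84701506 and the Hhex window chr19:37434591-37434890, all on the plus strand.
Kit: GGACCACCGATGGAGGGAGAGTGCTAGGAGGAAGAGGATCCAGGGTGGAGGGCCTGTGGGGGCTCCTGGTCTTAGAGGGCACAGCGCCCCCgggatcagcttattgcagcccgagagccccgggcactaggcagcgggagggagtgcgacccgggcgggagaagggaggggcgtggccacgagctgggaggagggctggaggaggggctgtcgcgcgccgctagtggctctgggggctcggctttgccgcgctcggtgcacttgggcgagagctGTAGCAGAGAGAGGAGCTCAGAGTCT
Lyl1: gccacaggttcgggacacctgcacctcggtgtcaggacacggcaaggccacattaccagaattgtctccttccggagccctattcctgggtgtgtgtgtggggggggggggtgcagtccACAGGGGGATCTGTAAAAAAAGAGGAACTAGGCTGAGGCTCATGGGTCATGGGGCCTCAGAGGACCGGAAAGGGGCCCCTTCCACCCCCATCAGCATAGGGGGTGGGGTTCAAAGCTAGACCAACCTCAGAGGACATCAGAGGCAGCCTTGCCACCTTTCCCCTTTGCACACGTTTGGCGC
Hhex: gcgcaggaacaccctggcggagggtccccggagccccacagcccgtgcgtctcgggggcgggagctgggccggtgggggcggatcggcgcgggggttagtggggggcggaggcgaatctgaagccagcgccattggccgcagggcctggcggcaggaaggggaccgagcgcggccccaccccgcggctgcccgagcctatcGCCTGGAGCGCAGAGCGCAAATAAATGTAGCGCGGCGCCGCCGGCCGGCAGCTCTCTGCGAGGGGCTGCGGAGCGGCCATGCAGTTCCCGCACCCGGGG
The covered part was 117 of 300 bases at Kit, 181 at Lyl1 and 99 at Hhex. GC content of these windows was 69.0% at Kit, 60.0% at Lyl1 and 75.7% at Hhex.

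A set of 5 short words was searched on both strands in all 13 windows of the 8 genes. TGACCA, a word bound by human BCL11A, occurred in 2 windows, both of Erg, and in 13.6% of the 32851 windows of the whole table. The Runx core TGTGGT occurred in 1 window, that of Meis1 (16.8% of all windows), and the Gata word AGATAA in 1 window, of Erg (11.2%). The E-box CANNTG was in 9 windows of 7 genes and the Ets core GGAAG in 12 windows of all 8 genes, against 72.3% and 71.4% of all windows. The Kit and Lyl1 windows each held 1 E-box, and the Hhex window held none. Matches describe the letters only; none of the 5 words contains another, though their matches can share bases.

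Bcl11b binding at these genes was lower in N440K than in wild type thymocytes at 4 of them when each gene's intervals were added up: Mycn, Kit, Bcl11a and Mef2c. For this the counts of all intervals of a gene were summed in each library, and all 13443 genes with a tested interval were fitted together (edgeR's quasi-likelihood test; a call is a p under 0.05 after Benjamini-Hochberg adjustment over all genes). Over all these genes 3.35% were called, 2.28% lower and 1.06% higher in N440K thymocytes; of the 9 progenitor genes 4 were called, all lower, with 1 called by DESeq2 and 1 to 3 when any single library was left out. The median log2 fold change was -0.32 over the 9 genes and 0.00 over all genes. A lower level in bulk thymocytes can mean less binding per cell or fewer cells with binding, which cannot be told apart. Levels below are CPM, the authors' counts scaled to library size, and a library is named by its genotype and replicate number.

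**Figure D1:**
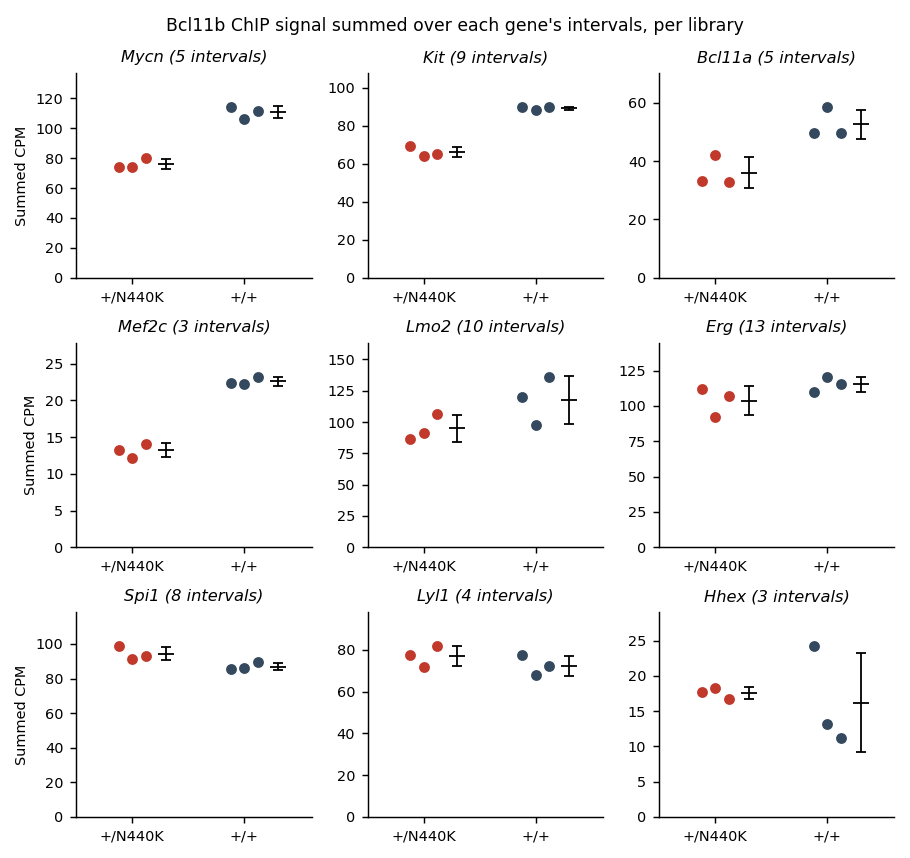
Summed Bcl11b ChIP signal (CPM, y axis from 0) over the tested intervals of each gene, with Bcl11b+/N440K libraries on the left and Bcl11b+/+ libraries on the right; points are libraries, bars are means with SD (n = 3 each). At Mycn, Kit, Bcl11a and Mef2c every N440K library lay below every wild type library, at Spi1 every N440K library lay above, and at Lmo2, Erg, Lyl1 and Hhex the genotypes overlapped. The share of all genes whose sums separate in this way was not computed, so the separation is a description only, and Spi1 was not called.

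The single intervals, whose counts make up these sums, leaned the same way. Of the 60 tested intervals, 41 had a negative log2 fold change (68.3%, against 49.5% of all tested intervals) and the median was -0.33, against 0.00 over all. An interval was called at 3 of the 60, all lower, at Lmo2, Mef2c and Mycn, where 1.14% of all 63098 were called in either direction and 0.681% were called lower. The called Lmo2 and Mef2c intervals had 2 to 5 reads per N440K library, so the filter on low counts kept them through the wild type libraries alone. An interval kept this way is bound to be lower in N440K thymocytes, so the direction of these calls was fixed by the filter. With no filter both were still called (edgeR adjusted p = 0.043 and 0.0479). The gene sums and the non-overlapping intervals counted below include such intervals. DESeq2 and limma voom called 0 of the 60, and edgeR called 0 with any single library left out except 1 without N440K replicate 2. At an unadjusted p under 0.05 stood 17 of the 60, 15 lower and 2 higher, against 12.7% of all intervals, 6.52% lower and 6.16% higher. The N440K libraries lay below every wild type library at 22 intervals (36.7%, against 8.95% of all) and above every one at 1 (1.67%, against 8.34%). In each N440K library alone the median log2 ratio of the 60 intervals to the wild type mean was -0.33, -0.29 and -0.26 (pseudocount 0.5 CPM), whereas the same median for a wild type library set against its fellow wild type libraries was -0.03, 0.02 and 0.01. These genes were proposed with earlier results of these data known, so the counts are descriptions and no test of the group was made.

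The intervals at these genes were weak ones. Their mean level over the 6 libraries ranged from 4.29 to 28.0 CPM with a median of 8.56 CPM, against 11.8 CPM over all tested intervals. When all tested intervals were ranked by level and divided evenly into 4 strata, 25 of the 60 lay in the weakest stratum and 5 in the strongest. The 25 in the weakest stratum had a median log2 fold change of -0.36, against -0.08 for all intervals there. In the next stratum the medians were -0.52 for 17 intervals of these genes and -0.04 for all, in the third -0.23 for 13 and 0.01 for all, and in the strongest 0.12 for 5 and 0.06 for all. The 35 intervals inside gene bodies had a median of -0.33 and the 25 outside a median of -0.27, against 0.01 and 0.00 for all tested intervals so placed within 100 kb. Within 1 kb of a gene start lay 13, among the genes whose strand was at hand, with a median of -0.55. The same median over all genes was not computed, so no effect of the start site can be read from it.

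**Figure D2:**
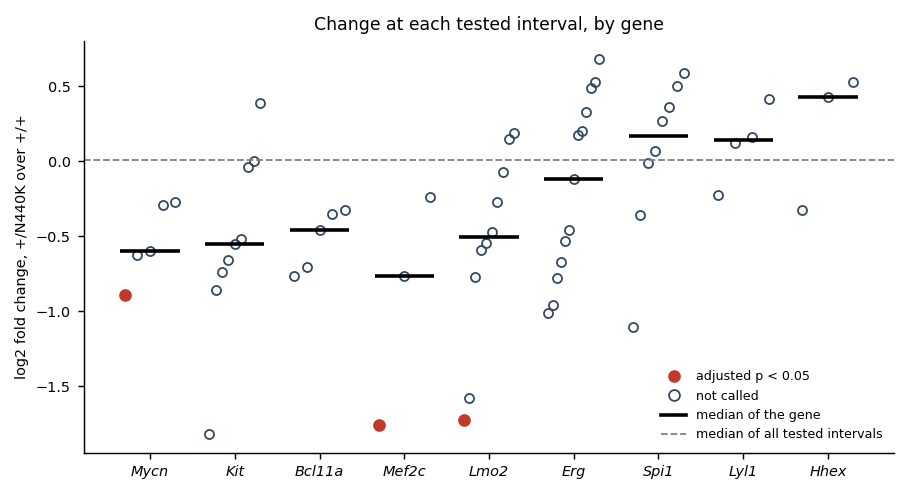
Log2 fold change of Bcl11b ChIP signal, Bcl11b+/N440K over Bcl11b+/+, at each of the 60 tested intervals grouped by gene; filled points are the 3 calls, black bars the median of each gene and the dashed line the median of all tested intervals. All 5 intervals of Mycn, all 5 of Bcl11a and all 3 of Mef2c lay below 0, and 8 of 9 at Kit did.

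Mycn had the firmest difference. The gene lies on chr12:12936093-12941836 (mm10), the same chromosome as Bcl11b, on the minus strand. Its 5 intervals summed to 74.2, 73.8 and 80.2 CPM in the N440K libraries, against 114, 106 and 112 CPM in the wild type libraries, so the genotypes did not overlap. The means were 76.1 ± 3.55 CPM in N440K and 110.6 ± 3.99 CPM in wild type thymocytes (SD, n = 3), and the summed signal fell to 68.2% of wild type (log2 fold change -0.55 ± 0.11, SE; edgeR adjusted p = 0.00177). It was called under all 18 alternative settings, with adjusted p between 0.001 and 0.0191. Among these settings, reads recovered from the CPM equal the raw counts, and a distance limit of 50 kb keeps the same 5 intervals. Those settings therefore add no separate support.

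All 5 Mycn intervals had negative log2 fold changes, from -0.89 to -0.28, with a median of -0.60. The median CPM over them was 11.1, 14.0 and 15.6 in the N440K libraries and 22.3, 21.4 and 20.2 in the wild type libraries. The strongest interval, chr12:12942423-12942623, sat 0.7 kb upstream of the gene start. It had 22.1, 18.3 and 25.0 CPM in N440K and 38.4, 34.2 and 30.0 CPM in wild type libraries, without overlap, and did not pass alone (log2 fold change -0.63 ± 0.19, SE; edgeR adjusted p = 0.0804). The called interval lay inside the gene body at chr12:12939014-12939214. It had 11.1, 14.0 and 9.37 CPM in N440K, against 22.3, 21.4 and 20.2 CPM in wild type libraries, again without overlap. Its signal fell 1.86-fold (log2 fold change -0.89 ± 0.24, SE; edgeR adjusted p = 0.0397).

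The call of this single Mycn interval was lost with DESeq2 (adjusted p = 0.559), with limma voom (0.0621), with no filter on low counts and without any 1 library other than N440K replicate 2 (0.0794 to 0.212; 0.0372 without that replicate). The other 20 tested intervals within 1 Mb of Mycn had a median of 0.02 on the log2 scale, and edgeR called 0 of them in either direction.

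Kit, the stem cell factor receptor, lies on chr5:75574987-75656722 (plus strand) and had 9 tested intervals, 4 of them within 1 kb of the gene start and 5 downstream of the gene body. They summed to 69.2, 64.1 and 65.1 CPM in the N440K libraries, against 89.8, 88.5 and 89.7 CPM in the wild type libraries. All N440K libraries were below all wild type libraries, and the wild type libraries differed little among themselves. Means were 66.1 ± 2.73 CPM in N440K and 89.4 ± 0.732 CPM in wild type thymocytes (SD, n = 3), and the summed signal fell to 73.2% (log2 fold change -0.45 ± 0.11, SE; edgeR adjusted p = 0.0169).

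The median over the 9 intervals was 6.64, 5.49 and 6.25 CPM in the N440K libraries, against 8.67, 10.3 and 8.58 CPM in the wild type libraries, and the median of their log2 fold changes was -0.55. No single Kit interval passed. Of the 4 at the gene start, those with midpoints 476 and 800 bp into the gene had every N440K library below every wild type library: at 800 bp the values were 8.31, 10.4 and 8.33 CPM in N440K, against 15.5, 14.8 and 12.4 CPM in wild type libraries (log2 fold change -0.66 ± 0.28, SE; edgeR adjusted p = 0.275). The interval 260 bp upstream, which covers the first run of capitals in the Kit sequence above, had 6.64, 5.49 and 5.21 CPM in N440K and 4.96, 6.59 and 6.01 CPM in wild type libraries, which overlapped. The smallest p was found 38.8 kb downstream of the gene body, at chr5:75695460-75695660, with 2.21, 1.83 and 1.56 CPM in N440K and 6.20, 5.35 and 8.58 CPM in wild type libraries. The filter on low counts kept this interval through the wild type libraries alone, which fixed its lower N440K level in advance. This interval rested on 3 to 4 reads per N440K library and 10 to 20 per wild type library (edgeR adjusted p = 0.0516; it passed with no filter or with total counts as library size, the smallest adjusted p being 0.0476). The strongest Kit interval, chr5:75730691-75730891, lay 74.1 kb downstream and had 20.5, 14.6 and 16.7 CPM in N440K, against 19.2, 11.9 and 21.5 CPM in wild type libraries; the genotypes overlapped there and the log2 fold change was 0.00 ± 0.24 (SE; edgeR adjusted p = 0.999).

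The Kit call was lost with DESeq2 (adjusted p = 0.132) and without N440K replicate 2 (0.0510), N440K replicate 3 (0.0661) or wild type replicate 3 (0.0611). With only intervals at or above the median level of all intervals, which keeps the strongest of the 9, its log2 fold change was -0.05 (0.968).

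Bcl11a, the paralog that the study's title names, lies on chr11:24076564-24173558 (plus strand) and had 5 tested intervals, each with a negative log2 fold change between -0.77 and -0.33 and a median of -0.46. They summed to 33.2, 42.1 and 32.8 CPM in the N440K libraries, against 49.6, 58.5 and 49.8 CPM in the wild type libraries, without overlap. Means were 36.0 ± 5.25 CPM in N440K and 52.6 ± 5.07 CPM in wild type thymocytes (SD, n = 3), and the summed signal fell to 67.0% of wild type (log2 fold change -0.58 ± 0.15, SE; edgeR adjusted p = 0.0197). The median over the 5 intervals was 6.09, 8.54 and 5.73 CPM in N440K and 8.05, 11.5 and 9.01 CPM in wild type libraries, which overlapped. No single interval passed.

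The strongest Bcl11a interval, chr11:24076349-24076549, also had the smallest p; its midpoint lay 115 bp upstream of the gene body. It had 8.86, 13.4 and 10.4 CPM in N440K and 18.0, 18.5 and 16.7 CPM in wild type libraries (log2 fold change -0.71 ± 0.25, SE; edgeR adjusted p = 0.163). Beside it, 680 bp into the gene, 4.98, 8.54 and 5.21 CPM stood against 11.2, 11.5 and 9.01 CPM in wild type libraries. At both intervals the genotypes did not overlap, and at the remaining 3 they did. The RefSeq window at hand for Bcl11a lies further inside the gene and held no tested interval. The gene's call was lost with DESeq2 (adjusted p = 0.173) and without N440K replicate 1 (0.116), N440K replicate 3 (0.107) or wild type replicate 2 (0.112), with the intervals inside the gene body alone (0.169) and with those at or above the median level of all intervals (0.115).

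Mef2c, a MADS box factor of early lymphoid and myeloid progenitors, lies on chr13:83504017-83667079 (plus strand). Only 3 of its 13 intervals were in the normalized table. They summed to 13.3, 12.2 and 14.1 CPM in the N440K libraries, against 22.3, 22.2 and 23.2 CPM in the wild type libraries, and every N440K library was lower. Means were 13.2 ± 0.930 CPM in N440K and 22.6 ± 0.527 CPM in wild type thymocytes (SD, n = 3), and the summed signal fell to 58.0% (log2 fold change -0.79 ± 0.22, SE; edgeR adjusted p = 0.0338).

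The median over the 3 intervals was 2.21, 4.88 and 5.73 CPM in N440K and 7.44, 7.0 and 6.87 CPM in wild type libraries, without overlap. The called Mef2c interval lay 62.4 kb into the gene at chr13:83566301-83566501, with 2.21, 1.22 and 2.60 CPM in N440K and 8.67, 6.59 and 6.44 CPM in wild type libraries. Those values are 4, 2 and 5 reads in the N440K libraries and 14, 16 and 15 reads in the wild type libraries (3.39-fold lower, edgeR adjusted p = 0.0490). The filter on low counts kept this interval through the wild type libraries alone, which fixed the direction of its difference. Much of the difference in the summed Mef2c signal came from this interval, so the direction of that part was fixed too. The sum without this interval was not tested. With no filter on low counts, the sum over all 13 Mef2c intervals had a log2 fold change of -0.59 (edgeR adjusted p = 0.01). The strongest Mef2c interval, chr13:83609225-83609425, had 9.97, 4.88 and 5.73 CPM in N440K, against 7.44, 7.0 and 9.87 CPM in wild type libraries, which overlapped (log2 fold change -0.24 ± 0.35, SE; edgeR adjusted p = 0.839). The third, 45.1 kb upstream, had a log2 fold change of -0.77. The gene's call was lost with DESeq2 (adjusted p = 0.273) and with the intervals inside the gene body alone (0.123), and when any 1 library was left out: 0.112, 0.0971 and 0.0728 without N440K replicates 1, 2 and 3, and 0.0818, 0.0757 and 0.106 without wild type replicates 1, 2 and 3. The interval's call was also lost with DESeq2 (0.555), with limma voom (0.244), with loess offsets (0.0684) and without any 1 library (0.0991 to 0.173).

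**Figure D3:**
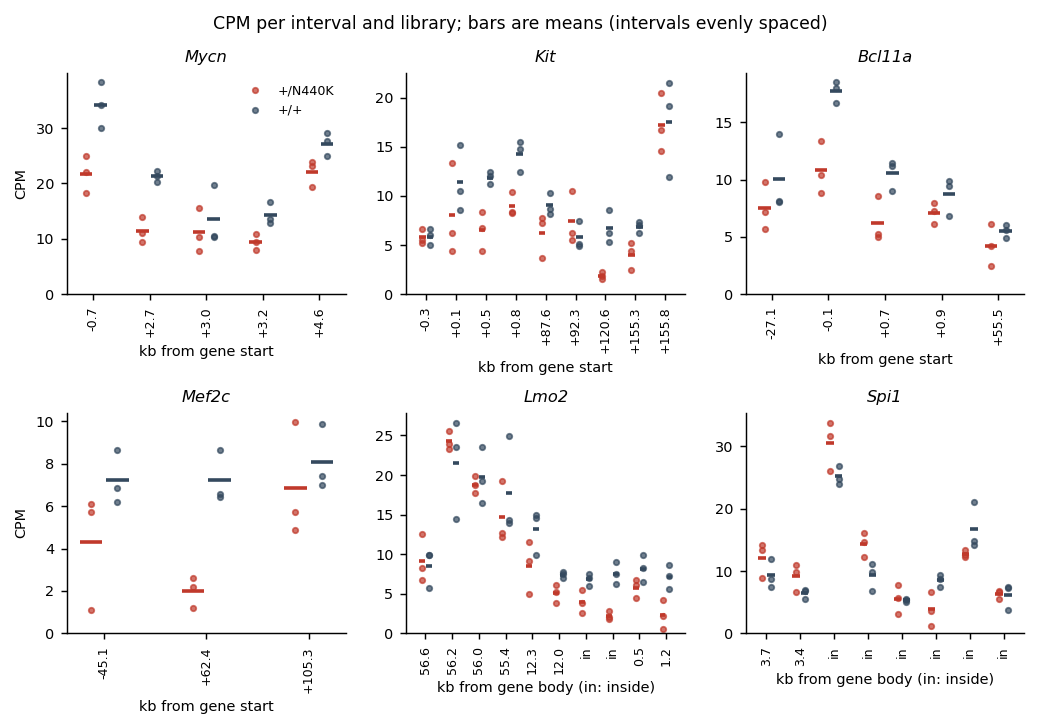
Bcl11b ChIP signal (CPM, y axis from 0) in each library at every tested interval of 6 genes, Bcl11b+/N440K left of Bcl11b+/+ within each interval, with bars at the means; intervals run in order, evenly spaced, and are labelled by distance from the gene start or, where the strand was not at hand (Lmo2, Spi1), by distance from the gene body. N440K means are lower at all intervals of Mycn, Bcl11a and Mef2c and at the 6 Lmo2 intervals nearest the gene, while the 4 Lmo2 intervals over 50 kb away overlap between genotypes.

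Lmo2 intervals differed by distance, and with it by level. The gene lies on chr2:103957903-103981878 and had 10 tested intervals with a median log2 fold change of -0.51, 8 of them negative. Their sum was 86.4, 91.5 and 106.7 CPM in the N440K libraries and 119.6, 97.6 and 136.1 CPM in the wild type libraries, so the genotypes overlapped and the gene was not called (log2 fold change -0.32 ± 0.12, SE; edgeR adjusted p = 0.149; called without wild type replicate 2, 0.0276, with a log2 fold change of -0.47, while without wild type replicate 3 the log2 fold change was -0.18 and the adjusted p 0.572). With the distance limit set to 50 kb, which keeps 6 intervals, it was called (log2 fold change -0.86; edgeR adjusted p = 0.00114), and likewise with the 2 intervals inside the gene body (-1.23; 0.0117). Both subsets hold the called interval at chr2:103975011-103975211, and the nearer 6 also hold chr2:103982939-103983139. The filter on low counts kept these intervals through the wild type libraries alone, which fixed the direction of their part in the sums.

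The median over all 10 was 4.71, 6.41 and 9.11 CPM in N440K and 9.91, 8.44 and 9.44 CPM in wild type libraries, which overlapped. The 6 nearer Lmo2 intervals, none over 12.3 kb from the gene body, summed to 22.1, 29.3 and 32.3 CPM in N440K, against 52.7, 46.9 and 51.1 CPM in wild type libraries. The 4 farther ones, 55.4 to 56.6 kb away at lower coordinates, summed to 64.2, 62.2 and 74.4 CPM in N440K, against 66.9, 50.6 and 85.0 CPM in wild type libraries. The nearer set did not overlap between genotypes and the farther set did. The difference between the sets was not tested. The nearer intervals were also mostly weaker, at 4.75 to 10.8 CPM on average, against 8.84 to 22.9 CPM for the farther ones. Distance and level therefore cannot be told apart. With intervals at or above the median level of all intervals, the Lmo2 sum had a log2 fold change of -0.07 (edgeR adjusted p = 0.889). The farther group held the strongest Lmo2 interval, chr2:103901568-103901768, with 23.3, 25.6 and 23.9 CPM in N440K and 23.5, 14.4 and 26.6 CPM in wild type libraries (log2 fold change 0.19 ± 0.21, SE; edgeR adjusted p = 0.775).

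The called Lmo2 interval lay inside the gene body at chr2:103975011-103975211. It had 2.77, 1.83 and 2.08 CPM in N440K and 7.44, 6.18 and 9.01 CPM in wild type libraries, from 3 to 5 reads in each N440K library and 12 to 21 in each wild type library. With so few N440K reads, the filter on low counts kept it through the wild type libraries alone, which fixed the direction of its difference. The genotypes did not overlap, and the signal fell 3.31-fold (log2 fold change -1.73 ± 0.46, SE; edgeR adjusted p = 0.0431). The call was lost with DESeq2 (0.550), with limma voom (0.221), with loess offsets (0.0595) and without any 1 library (0.0642 to 0.212).

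Lyl1, the basic helix-loop-helix gene whose product works with Lmo2, was not called under any of the 18 alternative settings. It lies on chr8:84701423-84704716 (plus strand) with 4 intervals, all inside the gene body, at 15.6 to 21.2 CPM on average, each above the median of all tested intervals. They summed to 77.5, 72.0 and 81.7 CPM in the N440K libraries, against 77.4, 67.9 and 72.1 CPM in the wild type libraries, which overlapped (log2 fold change 0.08 ± 0.12, SE; edgeR adjusted p = 0.804). Medians were 19.7, 16.5 and 20.8 CPM in N440K and 19.2, 18.5 and 17.4 CPM in wild type libraries, and the log2 fold changes had a median of 0.14. The interval at the gene start, which covers the capitals of the Lyl1 sequence above, had 20.5, 15.9 and 21.9 CPM in N440K and 19.8, 16.5 and 16.7 CPM in wild type libraries. The strongest, chr8:84704438-84704638, had 18.8, 23.2 and 24.5 CPM in N440K and 18.6, 20.6 and 21.5 CPM in wild type libraries (edgeR adjusted p = 0.865). The one with the smallest p, chr8:84703516-84703716, had 21.6, 15.9 and 15.6 CPM in N440K, against 16.1, 8.65 and 15.9 CPM in wild type libraries (log2 fold change 0.42 ± 0.25, SE; edgeR adjusted p = 0.506).

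Of the Ets family genes, Spi1, which encodes PU.1, lies on chr2:91082374-91115759 and had 8 intervals, whose log2 fold changes had a median of 0.17 (-0.08 for intervals at or above the median level of all intervals). Their sum was 98.6, 91.5 and 93.2 CPM in the N440K libraries, against 85.5, 86.0 and 89.3 CPM in the wild type libraries. The N440K libraries lay above the wild type libraries by a small margin, and the gene was not called (94.4 ± 3.68 CPM in N440K and 86.9 ± 2.04 CPM in wild type, SD, n = 3; log2 fold change 0.10 ± 0.10, SE; edgeR adjusted p = 0.712). The strongest interval, chr2:91082986-91083186 inside the gene body, had 33.8, 31.7 and 26.0 CPM in N440K and 24.8, 26.8 and 24.0 CPM in wild type libraries, which overlapped (log2 fold change 0.27 ± 0.18, SE; edgeR adjusted p = 0.581).

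Intervals of Spi1 leaned both ways, with medians of 8.31, 11.6 and 11.2 CPM in N440K and 7.74, 7.41 and 10.3 CPM in wild type libraries, which overlapped. The only one of the 60 intervals with every N440K library above every wild type library was the Spi1 interval at chr2:91087607-91087807, with 16.1, 12.2 and 14.6 CPM in N440K and 6.82, 9.88 and 11.2 CPM in wild type libraries (edgeR adjusted p = 0.339); it was named after its values were seen. In the opposite direction, chr2:91100321-91100521 had 6.64, 1.22 and 3.64 CPM in N440K, against 8.67, 7.41 and 9.44 CPM in wild type libraries (log2 fold change -1.11 ± 0.40, SE; edgeR adjusted p = 0.185).

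Erg, the other Ets factor gene, is the longest of the 10 (227.4 kb; chr16:95359169-95586600, minus strand) and had the most tested intervals, 13, with 7 negative and 6 positive log2 fold changes and a median of -0.12. Their sum was 111.9, 92.1 and 107.2 CPM in the N440K libraries, against 109.7, 120.6 and 115.5 CPM in the wild type libraries, which overlapped (log2 fold change -0.17 ± 0.10, SE; edgeR adjusted p = 0.456). The 8 intervals inside the gene body alone gave a call (log2 fold change -0.47; edgeR adjusted p = 0.0236). With intervals at or above the median level the sum turned to a log2 fold change of 0.18 and the median to 0.17. Without N440K replicate 2 the sum had a log2 fold change of -0.09 and the median was -0.045; the median was -0.40 without N440K replicate 1 and -0.27 without N440K replicate 3.

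The median over the 13 Erg intervals was 6.64, 6.71 and 7.29 CPM in N440K and 9.29, 8.23 and 8.16 CPM in wild type libraries, without overlap, unlike the sum. The Erg interval with the smallest p, chr16:95585627-95585827, lay 0.9 kb into the gene and had 5.54, 6.10 and 7.81 CPM in N440K, against 9.29, 16.5 and 12.9 CPM in wild type libraries, without overlap (log2 fold change -1.01 ± 0.31, SE; edgeR adjusted p = 0.0912). The strongest, chr16:95341550-95341750, lay 17.5 kb downstream and had 17.2, 9.76 and 21.9 CPM in N440K and 11.2, 12.8 and 10.3 CPM in wild type libraries, which overlapped (log2 fold change 0.53 ± 0.26, SE; edgeR adjusted p = 0.387).

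Of the homeodomain genes, Hhex lies on chr19:37434841-37440731 (plus strand) and had 3 intervals, all within 1 kb of its start. They summed to 17.7, 18.3 and 16.7 CPM in the N440K libraries, against 24.2, 13.2 and 11.2 CPM in the wild type libraries; the wild type libraries spread on both sides of the N440K ones (log2 fold change 0.17 ± 0.25, SE; edgeR adjusted p = 0.817). The sign turned without wild type replicate 3 (-0.03). Medians were 6.09, 5.49 and 5.73 CPM in N440K and 6.82, 5.35 and 4.29 CPM in wild type libraries, and the log2 fold changes had a median of 0.42, which was 0.03 without N440K replicate 2, 0.15 without wild type replicate 2, 0.10 without wild type replicate 3 and -0.04 with no filter on low counts. The interval that covers the capitals of the Hhex sequence above was the strongest, with 4.98, 3.05 and 7.29 CPM in N440K and 11.2, 5.35 and 4.29 CPM in wild type libraries (log2 fold change -0.33 ± 0.41, SE; edgeR adjusted p = 0.808). The one with the smallest p, chr19:37435615-37435815, had 6.64, 5.49 and 5.73 CPM in N440K and 6.82, 2.06 and 4.29 CPM in wild type libraries (edgeR adjusted p = 0.676).

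Meis1, on chr11:18880428-19019651 (minus strand), had 0 intervals in either table. The nearest interval of the raw table lay 803.6 kb from its gene body, with 1 to 11 reads per library. Its promoter window was the one that held the Runx core. No value of Bcl11b binding can therefore be given for Meis1.

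**Figure D4:**
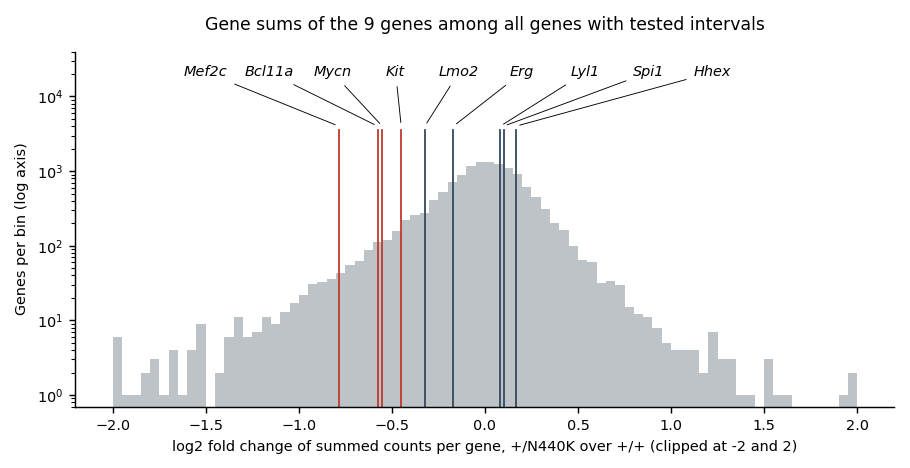
Log2 fold change, Bcl11b+/N440K over Bcl11b+/+, of summed counts for all 13443 genes with a tested interval (grey histogram, log y axis, x values clipped at -2 and 2), with the 9 progenitor genes as vertical lines, the 4 calls in red. Mef2c (-0.79), Bcl11a (-0.58), Mycn (-0.55) and Kit (-0.45) lie in the lower flank, and Lyl1, Spi1 and Hhex lie close to the centre on the positive side.

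Each gene's strongest interval was taken as the one with the highest mean over the 6 libraries. In wild type thymocytes its mean level ran from Mycn (34.2 ± 4.18 CPM) through Spi1 (25.2 ± 1.41), Lmo2 (21.5 ± 6.35), Lyl1 (20.2 ± 1.47), Bcl11a (17.7 ± 0.914), Kit (17.5 ± 4.98), Erg (11.4 ± 1.25) and Mef2c (8.10 ± 1.55) to Hhex (6.93 ± 3.69; SD, n = 3). All intervals have the same width, so these levels are per equal length. The neighbours in this order that differed by less than the larger SD of the pair were Spi1 and Lmo2, Lmo2 and Lyl1, Bcl11a and Kit, and Mef2c and Hhex.

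Around the called genes, other tested intervals within 1 Mb had a median log2 fold change of -0.03 around Kit (30 intervals) and 0.07 around Bcl11a (34, of which 1 was called, higher), and around Lmo2 it was -0.04 (77). Around Mef2c only 3 such intervals were tested, with a median of 0.36.

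The 38 intervals left out of the normalized table lay mostly at Erg (18) and Mef2c (10) and had 2.67 to 10.8 reads on average per library. In a fit with no filter on low counts, 24 of them (63.2%) had a negative and 14 a positive log2 fold change, with a median of -0.23. Over all 30610 intervals left out of that table the values were close to these, with 59.7% negative and a median of -0.19. Of the 38, 1 was called, against 0.562% of the 30610; it lay inside Erg at chr16:95434267-95434467, with 1, 1 and 2 reads in the N440K libraries and 11, 14 and 10 reads in the wild type libraries (edgeR adjusted p = 0.0129); it was named after its values were seen.

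Other genes of the progenitor programme were read from a list of 21, of which 19 had tested intervals. Of their 194 intervals 1 was called (0.515%, against 1.14% of all tested intervals; 0 with DESeq2, with limma voom and without N440K replicate 1). It was lower, at Hoxa7, a homeodomain gene (chr6:52217078-52217278; 1.66, 3.66 and 2.60 CPM in N440K and 9.91, 9.47 and 9.44 CPM in wild type libraries; edgeR adjusted p = 0.01), and the median log2 fold change was -0.05. The filter on low counts kept the Hoxa7 interval through the wild type libraries alone, which fixed the direction of its difference. By summed counts 3 of the 19 genes were called lower and 1 higher, against 2.28% lower and 1.06% higher over all genes. Lower were Gfi1b, a zinc finger repressor (26.3 ± 6.34 CPM in N440K and 46.3 ± 7.08 CPM in wild type; edgeR adjusted p = 0.00325), Hoxa10 (8.48 ± 2.39 CPM in N440K and 17.6 ± 2.46 CPM in wild type; 0.0212) and Hlf, a transcription factor of blood stem cells (28.0 ± 1.74 CPM in N440K and 48.4 ± 4.83 CPM in wild type; 0.00201). Higher was Nfe2, an erythroid and megakaryocyte factor (47.8 ± 3.79 CPM in N440K and 31.7 ± 1.65 CPM in wild type, SD, n = 3; edgeR adjusted p = 0.0223).

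Genes whose products work with the regulators were a list of 12, among them Ldb1, which holds Lmo2 complexes together, and Max, the partner of Myc proteins; 10 had tested intervals. By edgeR 0 of their 90 intervals were called (5 at an unadjusted p under 0.05), DESeq2 and limma voom called 0, and 0 of the 10 genes were called by summed counts. The median log2 fold change was 0.03. Of 11 T cell commitment genes with 192 intervals, edgeR called 9 intervals lower, 8 at Bcl11b itself and 1 near Gata3, and none higher (4.69%, against 1.14% of all tested intervals). The filter on low counts kept the Gata3 interval and the Bcl11b interval at chr12:107978111-107978311 through the wild type libraries alone. The direction of those calls was thereby fixed. DESeq2 called 1 of the 192 and limma voom 3; edgeR called 3 without N440K replicate 1 or N440K replicate 3, 4 without N440K replicate 2, wild type replicate 1 or wild type replicate 3, and 7 without wild type replicate 2. By summed counts Bcl11b was the 1 gene called among them, with 494.5 ± 33.6 CPM in N440K and 749.8 ± 28.3 CPM in wild type thymocytes (SD, n = 3; log2 fold change -0.62 ± 0.07, SE; edgeR adjusted p = 7.3e-07).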

How the data were processed

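Per the labels' protocols, thymocytes were cross-linked with formaldehyde and sonicated, and chromatin was precipitated with a Bcl11b antibody. Per the submitters' processing notes, which give no order, the tools included MACS2, edgeR 3.38.2, bedtools, Bowtie2 2.3.5, fastp 0.20.0 and SAMtools 1.9, and the build was mm10. Per-library or pooled peak calling: not given in the sources used here. The authors deposited raw read counts for 93708 intervals and a table of CPM for 63098 of them. Counts recovered from the deposited CPM were whole for 100% of values (tolerance 0.01) and equal to the raw counts, and, as an alternative added after seeing the data, gave 720 interval calls and 450 gene calls, as did the raw counts.

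Each interval went to its nearest of 21900 protein-coding gene bodies (RefSeq, GRCm38.p6), within 100 kb; exons were not separated from introns. Raw counts of these 63098 intervals, all of which filterByExpr kept, were scaled with TMM and tested with edgeR 4.0.16 (R 4.3.3), two-sided, genotype only, N440K over wild type, Benjamini-Hochberg over all intervals or genes; the SE is the log2 fold change over the root of F. Neighbouring intervals can share fragments. TMM centres log ratios near 0, so a general change could not be measured. Scripts were tested on simulated data. Libraries of a genotype differed by more than sampling noise (chi-square per degree of freedom 1.24 to 1.42). Values are given for each gene's strongest interval, its smallest p and every call. Alternatives were DESeq2 1.42.0, limma 3.58.1 (voom), other scalings, filters, distances and thresholds, a replicate block and leaving out each library. Members and lists were chosen with earlier results of these data known.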

Additional observations from a re-analysis of the deposited data

How the results depend on the processing

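The count of 3 called intervals was 0 with DESeq2, limma voom and an adjusted p of 0.01, 1 with loess offsets, for intervals at or above the median CPM and with the replicate block, and 0 to 1 without 1 library. It was 4 with total counts and with no filter. The count of 4 called genes was 1 with DESeq2, with the stricter p and with that CPM floor, 1 to 3 without 1 library, and 5 within 50 kb. The CPM floor tests fewer intervals and a left-out library leaves fewer samples; for the other settings the cause was not tested. Called intervals numbered 0 to 2 for the other progenitor genes, 0 to 1 for the partners and 1 to 11 for the commitment genes over all settings. The median of -0.33 was -0.28 with loess offsets and also with no filter, there over all 98 intervals. It was -0.21 for intervals at or above the median CPM and -0.35 to -0.25 without 1 library. The labels do not say that replicate numbers pair libraries: the correlation between libraries that share one was -0.0037, 0.0278 and 0.0577 (deviations from genotype means), with N440K replicates 2 and 3 each closest to the wild type library of the same number and N440K replicate 1 closest to wild type replicate 2 (0.0173); the replicate block alone gave 4 genes and 1 interval, and together with loess offsets 3 genes (without Mef2c, adjusted p = 0.0511) and 2 intervals. The called Lmo2 and Mef2c intervals lost their calls with the block (0.0601 and 0.0676) and with both (0.0815 and 0.091), and the Mycn interval stayed called (0.0385 and 0.0361). Signs of values that were not called turned at the strongest Kit interval (0.041 with limma voom, 0.031 with no filter, -0.241 to 0.206 without 1 library), at the strongest Hhex interval (-0.678 to 0.104) and the strongest Lmo2 interval (-0.061 to 0.407) without 1 library, for the Erg sum (0.183, CPM floor) and for the Hhex sum (-0.026 to 0.506 without 1 library). Gene medians that turned were those of Erg (0.168) and Spi1 (-0.082) at the CPM floor and of Hhex (-0.04) with no filter. Mef2c and Hhex have no interval above the CPM floor and so no value there. Of 160 gene results under alternatives, 131 kept sign and side of the threshold, 23 lost and 4 gained a call. For a gene not called in the main fit, a kept result means only that no call appeared. The reads recovered from the CPM equal the raw counts, so results under that alternative were kept by construction. The losses were at Mef2c (10 of 17 alternatives), Bcl11a (7 of 18) and Kit (6 of 18), and Mycn had 0 of 18. Depth limits the weak intervals: those called at Lmo2 and Mef2c rest on 2 to 5 reads per N440K library.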
